A study of Mus musculus with 9 samples.

Results

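The genes described here encode the proteins of the mitochondrial ribosome, measured by RNA sequencing in mouse liver. The rule uses the symbol and a minimum level, and no comparison between groups. Every gene symbol made of Mrpl or Mrps, a number and at most 1 closing letter from a to c was taken if its level was at least 1 in at least 3 of the 9 libraries. This gave 78 genes, out of 18148 symbols in the deposited table and 10388 symbols that met the same minimum. All 78 matching symbols reached a level of 1 in every library, so the minimum removed none. Nearest to the minimum were Mrpl19, with a mean level of 2.53, and Mrps25, with a mean level of 4.20.

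The livers came from C57BL/6J mice treated by gavage for 8 weeks, with 3 libraries in each of 3 groups. The DEHP_GTP group, titled "Treatment" by the submitters and read as the treatment group of their design text, received di(2-ethylhexyl) phthalate (DEHP), a plasticizer, at 1500 mg/kg/d with corn oil, and with it 70 mg/kg of green tea polyphenols (GTP). The DEHP group received that dose of DEHP with corn oil but no polyphenols, and the Control group received distilled water. Mice given corn oil alone or polyphenols alone are part of the design and are not analysed here, so DEHP and the oil given with it cannot be told apart. The labels give no age or sex, and do not state whether each library is a separate mouse, so the p-values below measure only how far these samples differ, and that spread may be technical.

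The mitochondrial ribosome translates the few messenger RNAs encoded by mitochondrial DNA, all of which specify subunits of the respiratory chain and ATP synthase. Its ribosomal RNAs are mitochondrial transcripts, whereas all of its proteins are encoded in the nucleus, made in the cytosol and imported. The small subunit holds the messenger RNA and decodes it, and the large subunit joins the amino acids. Hepatocytes, the main cell of the liver, are rich in mitochondria. In rodents DEHP is known as a peroxisome proliferator, acting largely through its metabolites and the nuclear receptor Ppara.

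Of the 78 genes, 51 encode proteins of the large subunit and 26 proteins of the small subunit. Despite their names, Mrps30 and Mrps18a belong to the large subunit. Mrps36 belongs to neither, since its product is a component of the 2-oxoglutarate dehydrogenase complex of the tricarboxylic acid cycle. Among the ribosomal proteins, 47 have a counterpart in bacterial ribosomes and 30 are specific to mitochondria.

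The deposited values, called levels here, had been scaled before deposit for the size of the library and the length of each transcript, and could be of the FPKM or the TPM kind. Absolute sequencing depth is therefore unknown. Library totals ran from 789076 to 863300, and averaged 796640 ± 6610 in DEHP_GTP, 843340 ± 28600 in DEHP and 845000 ± 22100 in Control libraries (SD, n = 3). The 22 genes of the major urinary proteins (Mup), abundant secreted products of hepatocytes, took 6.53% to 11.6% of the total in DEHP_GTP, 2.37% to 8.49% in DEHP and 16.1% to 20.3% in Control libraries. Values rescaled without these genes are given beside the results. The liver was recognisable in every library. The summed level of 8 hepatocyte markers was 72400 to 85100 in DEHP_GTP, 73500 to 76400 in DEHP and 93300 to 97000 in Control libraries. Alb was the largest part of this sum in every library. Of these 8 markers, 2 had all DEHP libraries above all Control libraries, and 3 had them all below. The summed level of 10 adipocyte markers was 1260 to 2180 in DEHP_GTP, 1040 to 2000 in DEHP and 2150 to 4140 in Control libraries. Most of this sum was a single gene in every library, Car3. Its level was 1194 to 2147 in DEHP_GTP, 665 to 1927 in DEHP and 2121 to 2690 in Control libraries. Control replicates 1 and 2 held fat tissue transcripts, among them Adipoq at 33.7 and 61.0 and Ucp1 at 50.3 and 36.2, and both genes were listed at 0 in the third Control library and in all DEHP_GTP and DEHP libraries. The summed level of the 8 markers of Kupffer cells, the macrophages of the liver, found in the table was 93.8 to 167 in DEHP_GTP, 103 to 152 in DEHP and 78.4 to 116 in Control libraries. For 4 of these 8 Kupffer cell markers all DEHP libraries lay above all Control libraries, compared with 33.8% of all genes tested. Among the 4 were Clec4f, at 19.6 to 29.6 in DEHP and 15.7 to 16.8 in Control libraries, and Cd5l. The level of Cd5l was 21.6 to 32.1 in DEHP and 15.2 to 17.0 in Control libraries. The part of these cell markers in the results was not tested, and results with only the third Control library are given below.

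The 78 genes spanned an 81.6-fold range of mean level over the 9 libraries, with a median of 35.9 against 7.48 for all genes tested. The 6 highest were Mrpl52 (mean level 206), Mrps21 (186), Mrpl14 (127), Mrpl12 (126), Mrpl30 (122.6) and Mrpl42 (113). The 6 lowest were Mrpl19 (2.53), Mrps25 (4.20), Mrpl35 (6.75), Mrpl17 (8.56), Mrpl11 (10.1) and Mrpl41 (11.52). Most of these proteins are present as a single copy in each ribosome, whereas Mrpl12 is present in several. In each library, the large subunit genes summed to between 2.12 and 2.26 times the small subunit genes. Replicates lay close together. The median coefficient of variation was 7.39% in DEHP_GTP, 6.35% in DEHP and 5.27% in Control libraries, while for all genes tested it was 9.18% in DEHP_GTP, 10.6% in DEHP and 8.86% in Control libraries. Within the DEHP_GTP group, replicate 1 held the lowest value for 56 of the 78 genes and replicate 2 the highest for 44. Within the DEHP group, replicate 3 held the highest value for 48.

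Promoter sequences from RefSeq (mouse build GRCm38.p6, 250 bases before to 50 bases after the gene start) were found for 69 of the 78 genes. They were searched on both strands for 5 fixed motifs of factors known to drive genes of mitochondrial proteins or to answer to peroxisome proliferators. The motif of NRF1, whose matches are printed below, stood in 13 of the 69 genes (18.8%), against 12.1% of the tested genes and 5.19% of all genes with a window. CCGGAAGT, the motif of ETS factors such as GABPA, stood in 12 (17.4%, against 9.83% and 4.31%). The core motif of YY1 stood in 5 (7.25%, against 2.67% and 1.00%), but in the 250 bases before the start alone it stood in 1 (1.45%, against 0.88% of the tested genes). GGGGCGGGG, the motif of SP1, stood in 13 (18.8%, against 24.9% and 12.9%). The direct repeat bound by PPAR receptors, DR1, was in none of the 69 and in 0.05% of the tested genes. A match of letters is a description and does not show that a factor binds. In 31 of the 69 genes none of the 5 motifs was found.

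Windows of 4 genes are printed as examples: Mrpl14 as a gene with both NRF1 and SP1 motifs and a large rise with DEHP, Mrpl45 as the gene with 3 NRF1 motifs, and Mrpl46 and Mrps11 as neighbours that start head to head, whose levels are set side by side below. Each is written 5′ to 3′ on the strand of its gene, with motif matches in capitals. The windows lie at chr17:45686099-45686398 on the plus strand (Mrpl14), chr11:97315466-97315765 on the plus strand (Mrpl45), chr7:78783040-78783339 on the minus strand (Mrpl46) and chr7:78782881-78783180 on the plus strand (Mrps11).
Mrpl14: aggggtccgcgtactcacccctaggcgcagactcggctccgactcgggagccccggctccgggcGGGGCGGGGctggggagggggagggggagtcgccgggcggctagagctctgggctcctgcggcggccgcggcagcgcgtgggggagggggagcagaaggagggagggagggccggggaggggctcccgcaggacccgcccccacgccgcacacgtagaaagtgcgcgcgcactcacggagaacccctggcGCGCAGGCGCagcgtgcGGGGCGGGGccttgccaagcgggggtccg
Mrpl45: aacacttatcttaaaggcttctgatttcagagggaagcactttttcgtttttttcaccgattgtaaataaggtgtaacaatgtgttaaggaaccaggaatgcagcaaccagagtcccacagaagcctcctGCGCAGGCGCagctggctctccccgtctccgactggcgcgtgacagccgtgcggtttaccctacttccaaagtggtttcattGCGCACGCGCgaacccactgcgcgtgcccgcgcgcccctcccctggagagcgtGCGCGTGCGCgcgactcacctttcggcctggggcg
Mrpl46: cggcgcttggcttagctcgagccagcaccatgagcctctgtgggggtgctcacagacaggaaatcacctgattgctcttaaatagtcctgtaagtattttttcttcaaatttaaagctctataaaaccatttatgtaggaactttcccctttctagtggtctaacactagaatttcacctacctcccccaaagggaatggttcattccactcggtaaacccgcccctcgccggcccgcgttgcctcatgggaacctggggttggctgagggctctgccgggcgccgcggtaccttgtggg
Mrps11: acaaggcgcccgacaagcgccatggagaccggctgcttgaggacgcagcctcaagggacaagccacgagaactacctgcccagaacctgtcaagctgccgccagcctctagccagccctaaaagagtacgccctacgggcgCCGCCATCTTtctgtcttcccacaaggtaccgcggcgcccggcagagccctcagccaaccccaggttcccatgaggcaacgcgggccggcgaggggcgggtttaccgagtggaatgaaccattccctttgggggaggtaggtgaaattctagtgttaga
In Mrpl14, the NRF1 motif GCGCAGGCGC begins 4 bases after the gene start, between SP1 motifs at positions -186 and 21. In Mrpl45, the NRF1 motifs begin at positions -120, -38 and 15, the third on the complementary strand. Mrps11 holds the YY1 motif on the complementary strand at position -109. The window of Mrpl46 holds none of the 5 motifs. However, that YY1 match lies in the region the pair shares, just past the end of the Mrpl46 window. This difference between the pair therefore reflects where the window ends.

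Whether the mitochondrial ribosome responded to DEHP was read first from the summed level of the 78 genes. The sum was 3843, 3881 and 4108 in DEHP libraries, and 3008, 2969 and 2994 in Control libraries. Every DEHP library lay above every Control library, and the mean was 3944 ± 143 in DEHP and 2990.5 ± 19.6 in Control (SD, n = 3), a ratio of 1.32. The sum made up 0.468% of the total in DEHP and 0.354% in Control libraries. The Control libraries with and without fat transcripts lay within this narrow range.

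**Figure D1:**
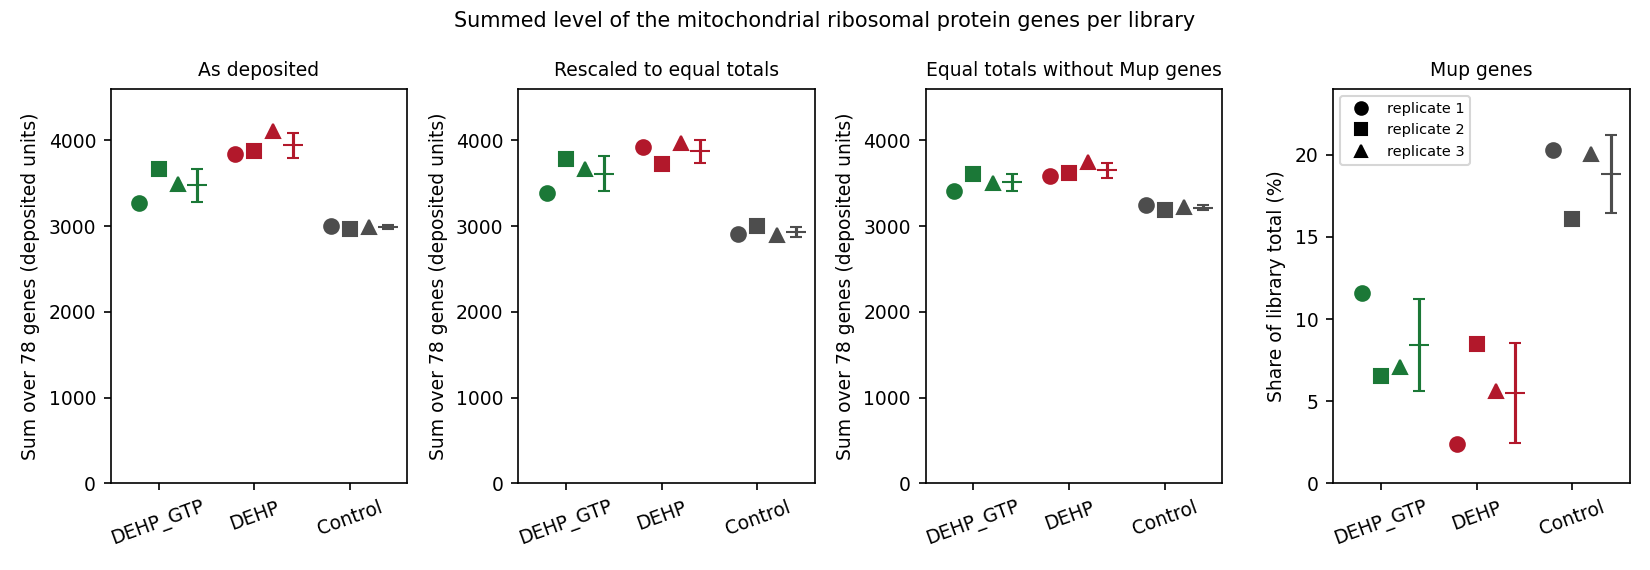
Summed level of the 78 mitochondrial ribosomal protein genes in each library (y axis, deposited units) for the DEHP_GTP, DEHP and Control groups, as deposited, after rescaling all libraries to equal totals and after doing so without the Mup genes, and the Mup share of each library (right, percent). Points are libraries and bars are mean ± SD (n = 3); DEHP lies above Control in all 3 scalings, while DEHP_GTP and DEHP overlap in both rescaled panels.

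Mitochondrial ribosomal protein genes rose broadly with DEHP. Of the 78, 59 were higher in DEHP than in Control libraries and none was lower (limma, Benjamini-Hochberg adjusted p below 0.05 over all 10388 genes tested). Across all genes tested, 21.6% were called higher and 3.91% lower. All 78 fold changes were above 0, as were 69.9% of all genes. For 67 of the 78 the DEHP libraries all lay above the Control libraries, compared with 33.8% of all genes. The median log2 fold change, on the scale of log2(level + 1), was 0.36 (quartiles 0.26 and 0.45, range 0.03 to 0.70), while the median of all genes tested was 0.12. Thus the typical member lay 0.24 above the typical gene. As this is bulk tissue, more cells of a type and more RNA per cell cannot be told apart.

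The size of the rise moved with the scaling. Without the Mup genes, the summed level averaged 3650 ± 87.6 in DEHP and 3216 ± 30.1 in Control libraries, a ratio of 1.14, and 20 genes were called. Quantile normalization left 15 called and centring on the median gene 33. Over all genes, 804 were called higher and 996 lower without the Mup genes, 922 higher and 833 lower after quantile normalization, and 1271 higher and 736 lower after centring, beside 2248 higher and 406 lower as deposited. Under these scalings the median of all genes was -0.06, -0.0043 and 0.01, and the members' median exceeded it by 0.22, 0.16 and 0.24. With Control replicate 3, which lacks the fat transcripts, as the lone control, the members' median was 0.38 and that of all genes 0.18. Shorter transcripts had higher fold changes, with a Spearman correlation with transcript length of -0.241 over 10304 tested genes and -0.177 over the 78. With a length trend removed within each library, 52 members were called higher, beside 2238 over those genes. The members' median was then 0.33, against 0.12 for all genes. Across the 20 settings tried, no member was called lower, and the 10 genes Mrpl13, Mrpl16, Mrpl21, Mrpl50, Mrpl51, Mrps16, Mrps18a, Mrps18b, Mrps33 and Mrps36 were called higher in each.

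Mrpl54, a large subunit protein specific to mitochondria, had the largest rise. Its level was 96.1, 93.4 and 100.04 in DEHP libraries, against 59.1, 53.1 and 65.4 in Control libraries, a log2 fold change of 0.70 (SE 0.10, limma adjusted p = 0.001435). Mrpl14, whose product sits at the face of the large subunit that meets the small one, had a level of 163, 155 and 151 in DEHP libraries, against 98.2, 100.2 and 106 in Control libraries. Its log2 fold change was 0.62 (SE 0.09, limma adjusted p = 0.001141). Its promoter window holds an NRF1 and 2 SP1 motifs. Both genes had groups that did not overlap and moved by more than the spread within either group.

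Mrpl50, another mitochondria-specific protein, had a level of 28.2, 26.1 and 27.4 in DEHP libraries and 19.1, 16.9 and 17.1 in Control libraries (log2 fold change 0.60, SE 0.08, limma adjusted p = 0.000946). Mrpl16, the counterpart of a bacterial protein near the catalytic centre, had a level of 35.2, 32.9 and 33.6 in DEHP libraries and 23.8, 21.5 and 21.9 in Control libraries. It gave the smallest adjusted p of the 78 (limma, 0.000525) at a log2 fold change of 0.58 (SE 0.07). Mrps16, a small subunit protein whose human form is mutated in a fatal disorder of mitochondrial translation, had a level of 62.2, 67.7 and 71.04 in DEHP libraries, against 42.2, 44.6 and 46.3 in Control libraries (log2 fold change 0.58, SE 0.08, limma adjusted p = 0.000981). Mrpl13, Mrpl21 and Mrpl15, all with bacterial counterparts, completed the 8 largest rises at log2 fold changes of 0.59, 0.58 and 0.56. In each of these 8 genes the lowest DEHP library exceeded the highest Control library.

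**Figure D2:**
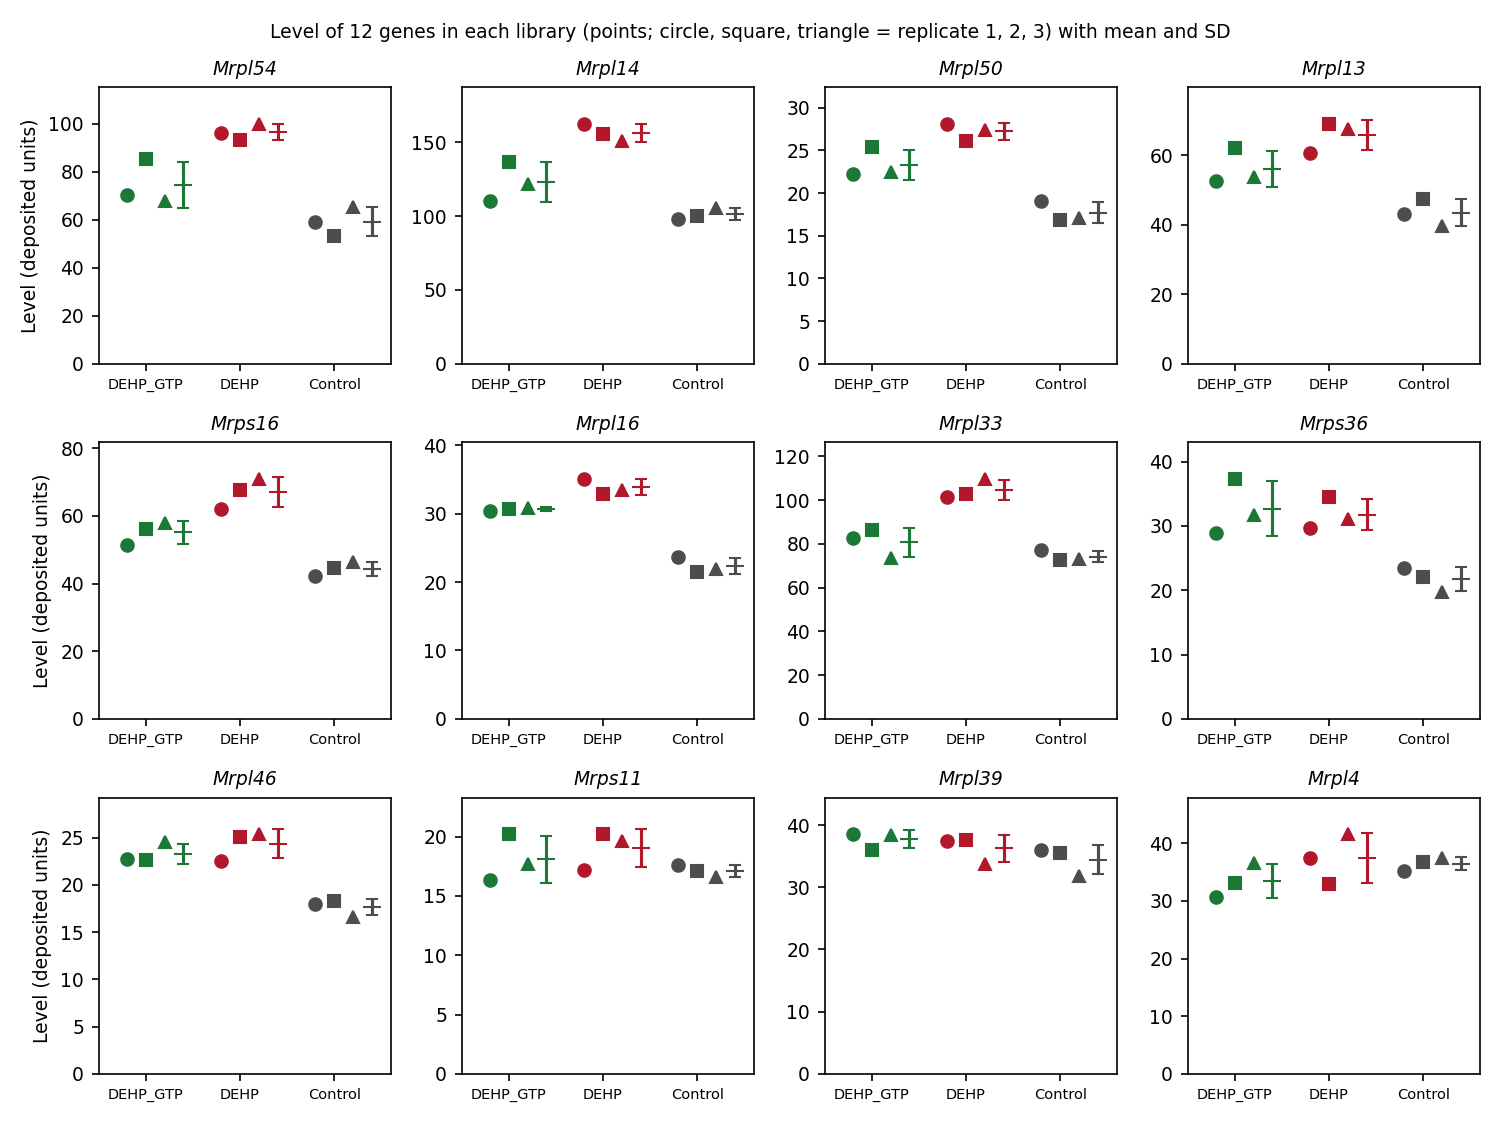
Level (y axis, deposited units, from 0) of 12 genes in each DEHP_GTP, DEHP and Control library, with bars for mean ± SD (n = 3). Mrpl54 and Mrpl14 separate all DEHP libraries from all Control libraries, whereas Mrpl39 and Mrpl4 overlap between them, and Mrps36 is as high in DEHP_GTP as in DEHP libraries.

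The response to DEHP was spread over both subunits. In the large subunit 39 of 51 genes were called higher (median log2 fold change 0.37), and in the small subunit 19 of 26 (median 0.31). Of all genes tested, 21.6% were called higher (median 0.12). Mrps36 was called too. Proteins with a bacterial counterpart and proteins specific to mitochondria gave 36 of 47 called (median 0.36) and 22 of 30 called (median 0.36). None of these differences between classes was tested. The ratio of large to small subunit sums was 2.26, 2.15 and 2.16 in DEHP libraries and 2.15, 2.13 and 2.18 in Control libraries, so the groups overlapped.

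Proteins of the stalk, which recruits the translation factors to the large subunit, included both called and uncalled genes. Mrpl12, the stalk protein itself, had a level of 144, 143 and 149 in DEHP libraries and 103, 104 and 114 in Control libraries (log2 fold change 0.44, SE 0.08, limma adjusted p = 0.003028). Mrpl10, which anchors the stalk, changed by 0.42 on the log2 scale (SE 0.07, limma adjusted p = 0.002072). Mrpl11, at the stalk base, did not pass (0.24, SE 0.10, limma adjusted p = 0.08711), with overlapping levels of 9.32, 11.50 and 11.30 in DEHP libraries and 8.40, 9.38 and 8.78 in Control libraries.

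Around the exit tunnel, through which the growing chain leaves toward the inner membrane, Mrpl45, which tethers the ribosome there, rose by a log2 fold change of 0.44 (SE 0.09, limma adjusted p = 0.00655). Its level was 16.9, 16.3 and 19.1 in DEHP libraries, against 12.4, 13.2 and 12.3 in Control libraries. Mrpl23 was called higher at 0.31, whereas its neighbour Mrpl24 was at 0.25 and did not pass (limma adjusted p = 0.07645). Among the other large subunit proteins with bacterial relatives, Mrpl2 (0.26) and Mrpl3 (0.37) passed and Mrpl4 did not. Mrpl41 (0.39) and Mrpl44 (0.37) passed, and Mrpl36 (0.24, limma adjusted p = 0.05676) did not. Mrpl58, a hydrolase that can release chains from stalled ribosomes, was at 0.19 and did not pass.

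In the small subunit, the counterparts of bacterial proteins were mixed. Mrps5 (log2 fold change 0.31), Mrps7 (0.30), Mrps14 (0.37) and Mrps28 (0.46) were called higher, and Mrps2 (0.25), Mrps12 (0.24) and Mrps15 (0.21) were not. The 3 genes that share a number, Mrps18a, Mrps18b and Mrps18c, rose by 0.50, 0.47 and 0.53 on the log2 scale, although Mrps18a sits in the large subunit. In the classes used here, Mrps18b was counted as mitochondria-specific, and Mrps18a and Mrps18c as having a bacterial counterpart. Of the mitochondria-specific proteins, Mrps22 (0.31), Mrps27 (0.41), Mrps34 (0.29) and Mrps35 (0.49) were called. Mrps30, which sits in the large subunit, was called at 0.35.

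Mrps36, the component of 2-oxoglutarate dehydrogenase, was also called higher. Its level was 29.7, 34.4 and 31.1 in DEHP libraries, against 23.4, 22.0 and 19.8 in Control libraries, without overlap (log2 fold change 0.53, SE 0.10, limma adjusted p = 0.005456).

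A total of 19 genes did not pass in DEHP against Control. The smallest fold changes belonged to Mrpl4 (0.03, limma adjusted p = 0.8594), Mrpl39 (0.07, limma adjusted p = 0.5359), Mrps11 (0.14, limma adjusted p = 0.2949) and Mrpl38 (0.14, limma adjusted p = 0.1967). Mrpl4 had a level of 37.5, 33.0 and 41.7 in DEHP libraries and 35.2, 36.7 and 37.5 in Control libraries, and its DEHP libraries lay on both sides of the Control libraries. The 6 genes Mrpl4, Mrpl38, Mrpl39, Mrpl58, Mrps11 and Mrps15 changed the sign of their fold change in at least 1 setting, and in none of those settings was the change called. Mrpl55, the uncalled gene with the largest fold change (0.36, SE 0.13, limma adjusted p = 0.06225), had non-overlapping groups but a DEHP replicate 3 at 46.2 next to 33.29 and 33.95.

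Mrpl46 and Mrps11 share their promoter region and start in opposite directions. Mrpl46 had a level of 22.6, 25.1 and 25.4 in DEHP libraries, against 17.98, 18.27 and 16.63 in Control libraries, and was called higher (log2 fold change 0.44, SE 0.08, limma adjusted p = 0.002725). Mrps11 had a level of 17.2, 20.2 and 19.6 in DEHP libraries, against 17.6, 17.1 and 16.6 in Control libraries, with overlap. The ratio of Mrpl46 to Mrps11 was 1.39, 1.12 and 1.39 in DEHP_GTP libraries, 1.31, 1.24 and 1.30 in DEHP libraries and 1.02, 1.07 and 1.00 in Control libraries. This pair was chosen after its values were seen and its ratio carries no test. Exons of the pair overlap on opposite strands in the GENCODE M21 annotation, and the sources used here do not give whether reads were counted by strand. Their separate levels are therefore uncertain, as are those of the other members among the 28 whose exons overlap a gene on the opposite strand. These 28 include Mrpl13, Mrpl14 and Mrpl21, named above among the largest rises. Exons of Mrpl53, Mrps6, Mrps24 and Mrps34 overlap a coding gene on the same strand. Mrpl23, Mrpl48 and Mrps36 each have a pseudogene named after them. The part of these overlaps and pseudogenes in the levels was not tested.

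Of the 69 genes with a promoter window 53 were called higher with DEHP (76.8%), beside 21.6% of all genes tested. By motif, 12 of the 13 with an NRF1 motif were called (median log2 fold change 0.43), the exception being Mrpl39, which holds 2 NRF1 motifs. Called higher were also 10 of 12 genes with an ETS motif (median 0.39), 4 of 5 with a YY1 motif (0.36), 12 of 13 with an SP1 motif (0.31) and 20 of 31 with none of the 5 motifs (0.32). These shares overlap between motifs and were not tested against each other. Mrpl46, called higher, was counted among the genes with none, and Mrps11, not called, among those with a YY1 motif. The YY1 match lies in the region that this pair shares, just past the end of the Mrpl46 window.

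Adding polyphenols to DEHP gave lower levels for most of the genes, but no gene passed. The summed level was 3275, 3664 and 3489 in DEHP_GTP libraries, against 3843, 3881 and 4108 in DEHP libraries. All DEHP_GTP libraries lay below all DEHP libraries, with means of 3476 ± 195 in DEHP_GTP and 3944 ± 143 in DEHP libraries (SD, n = 3), a ratio of 0.881. DEHP_GTP libraries also had the smallest totals. After rescaling to equal totals the groups overlapped, with means of 3614 ± 202 in DEHP_GTP and 3875 ± 134 in DEHP libraries. They also overlapped without the Mup genes.

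No member was called in either direction between DEHP_GTP and DEHP by limma, and neither was any of the 10388 genes (0.0% higher and 0.0% lower). With equal totals, 5 genes were called higher over the whole table, and without the Mup genes 37 were higher and 1 lower. Leaving out DEHP replicate 2 gave 34 higher and 52 lower over the whole table. None of these was a member. At an unadjusted p below 0.05, 26 of the 78 were lower and none higher, beside 8.82% of all genes lower and 5.85% higher. The number of members at that p, in either direction, was 11 after quantile normalization, 7 with equal totals and 4 without the Mup genes. The DEHP_GTP libraries all lay below the DEHP libraries for 29 of the 78, compared with 10.4% of all genes. Fold changes were below 0 for 70 of the 78 and for 53.3% of all genes, with a median log2 fold change of -0.15 for the members and -0.01 for all genes. The 70 members below 0 became 63 after quantile normalization, 59 with equal totals and 50 without the Mup genes. Over 19 settings the members' median ran from -0.17 to -0.02 and stayed below the median of all genes by 0.10 to 0.17.

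The smallest p belonged to Mrpl33, the counterpart of a bacterial protein of the large subunit. Its level was 82.5, 86.3 and 73.3 in DEHP_GTP libraries, against 101, 103 and 110 in DEHP libraries, a log2 fold change of -0.37 (SE 0.08, limma adjusted p = 0.1224). Mrpl14 had a level of 110, 137 and 122 in DEHP_GTP libraries and 163, 155 and 151 in DEHP libraries (-0.35, limma adjusted p = 0.1403). Mrpl18 (-0.26), Mrpl54 (-0.38) and Mrps16 (-0.28) followed, with limma adjusted p from 0.147 to 0.1662. In all 5 genes the groups did not overlap. Relative to Control, Mrpl33 in DEHP_GTP libraries was at 0.12 on the log2 scale and overlapped the Control levels of 77.0, 72.5 and 72.9.

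The 8 genes with fold changes above 0 between DEHP_GTP and DEHP lay near it, from 0.00 for Mrpl11 to 0.06 for Mrpl39. They also included Mrpl38 (0.05), Mrps5 (0.03), Mrps36 (0.03), Mrpl37 (0.02), Mrps9 (0.01) and Mrps31 (0.01). Their limma adjusted p ran from 0.7848 to 0.9962 and their groups overlapped. Large and small subunit genes had similar medians, -0.15 and -0.14. Across the 78 genes, shorter transcripts had more negative fold changes (Spearman correlation 0.419 with transcript length), as they did across all tested genes with a known length (0.294 over 10304 genes). Transcript length and level are shared by all libraries, and the genes are not independent. Members are short, with a median transcript of 1051.5 bases against 2029 for tested genes. With a length trend removed within each library, the members' median became -0.12.

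**Figure D3:**
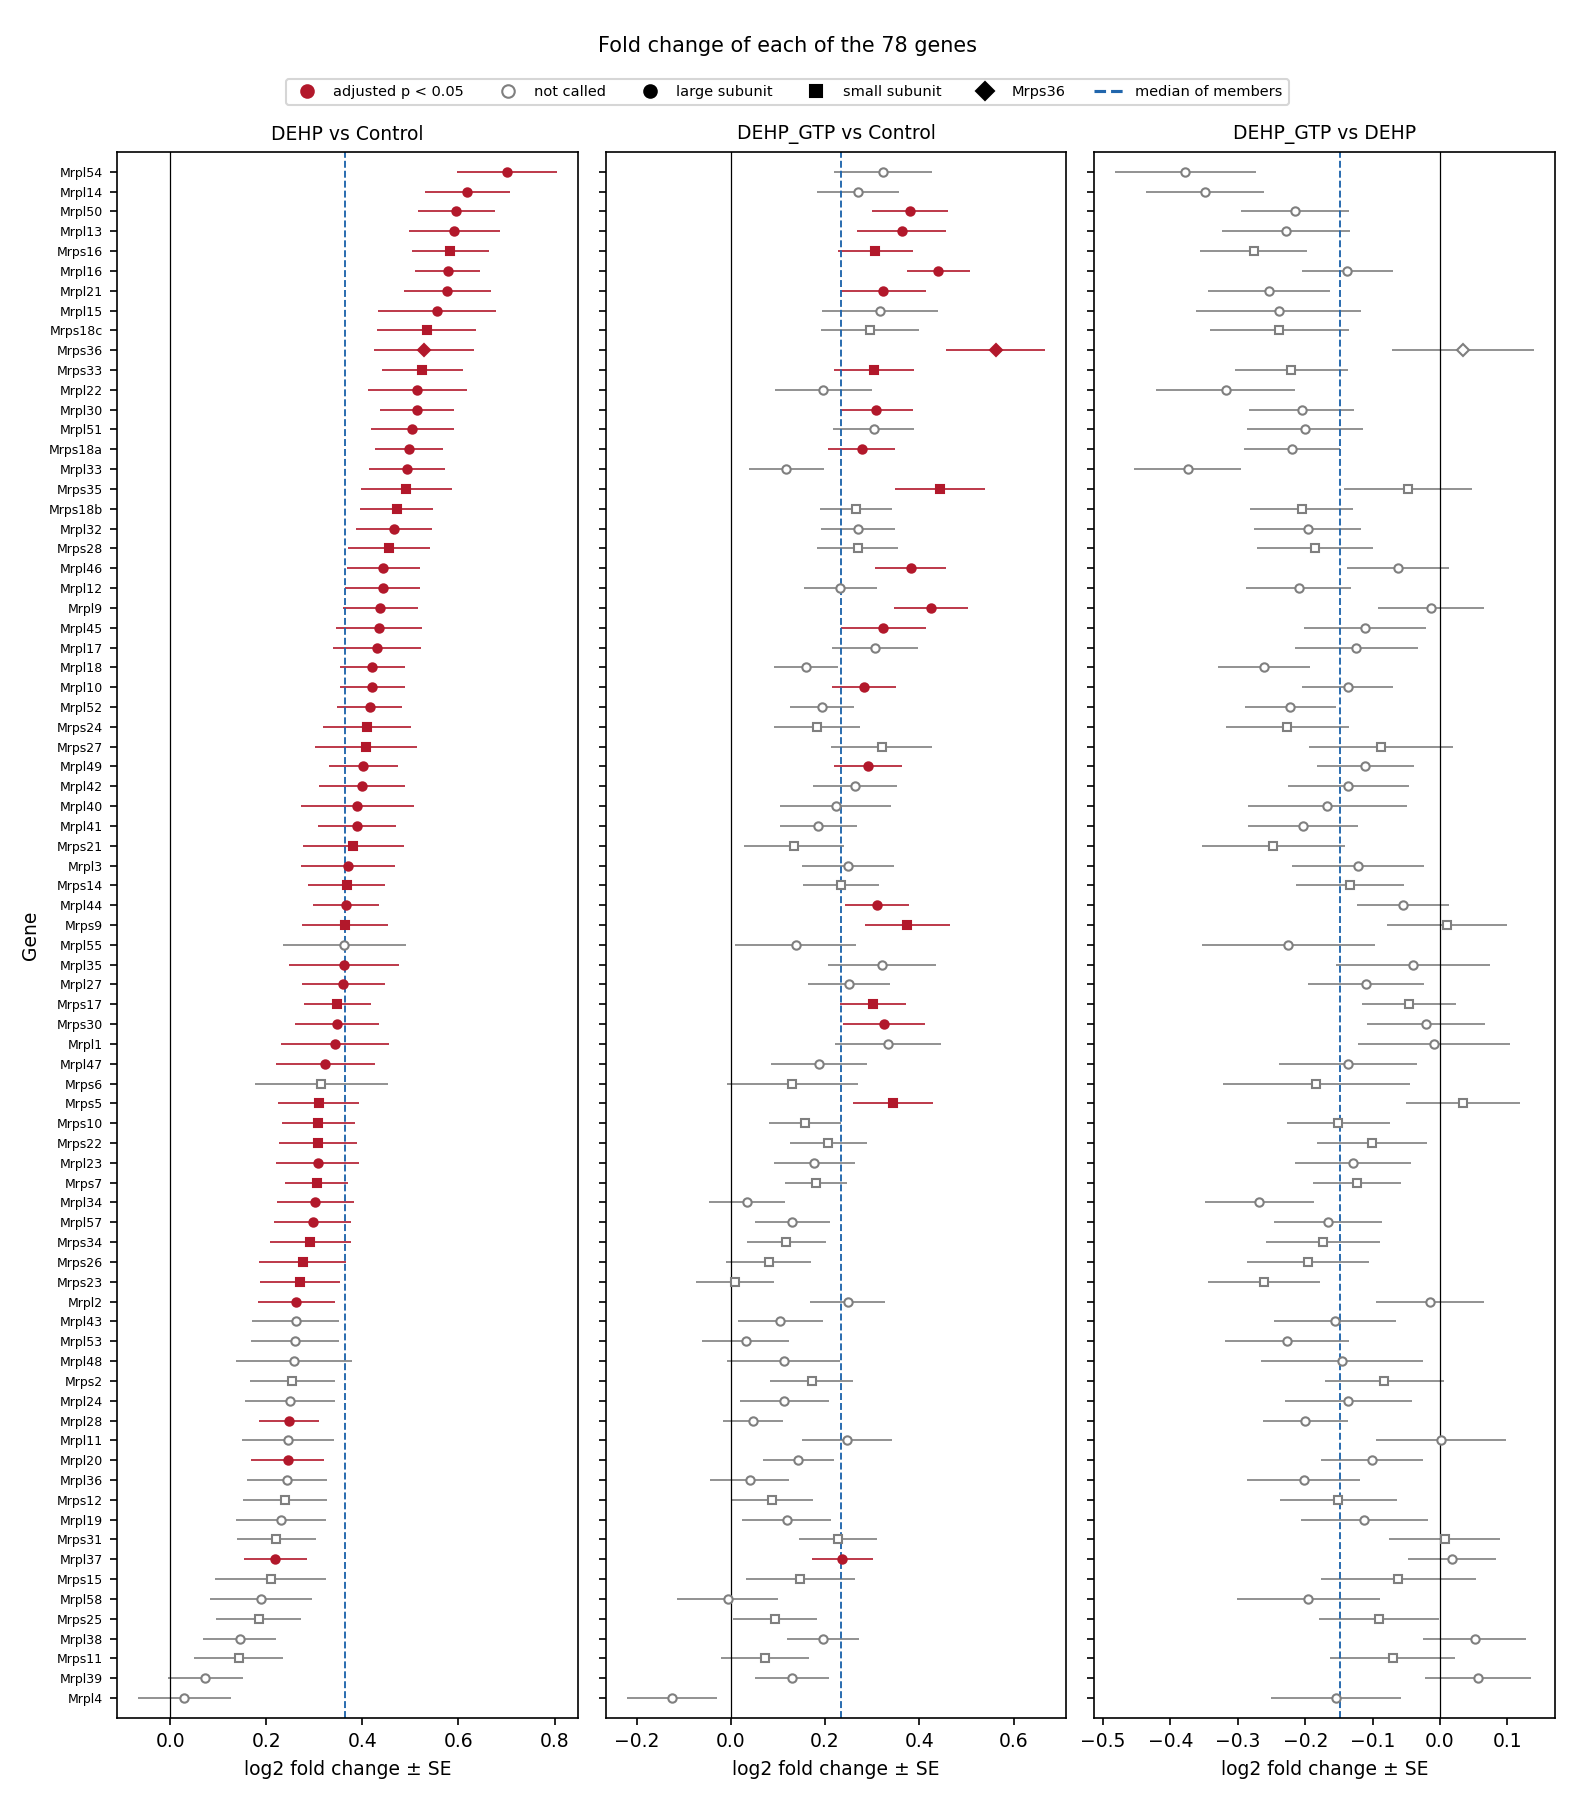
Log2 fold change ± SE (x axis, limma on log2(level + 1), n = 3 per group) of each of the 78 genes (y axis, ordered by DEHP vs Control) in DEHP vs Control, DEHP_GTP vs Control and DEHP_GTP vs DEHP. Filled red symbols have an adjusted p below 0.05, circles are large and squares small subunit genes, and the dashed line is the median, at 0.36, 0.23 and -0.15; single uncalled genes change sign under other scalings.

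DEHP_GTP livers lay above Control livers in the same genes' summed level, with 3275, 3664 and 3489 in DEHP_GTP and 3008, 2969 and 2994 in Control libraries, a ratio of 1.16 without overlap. By limma, 21 of the 78 genes were called higher and none lower, beside 9.68% and 0.76% of all genes tested. Fold changes were above 0 for 76 of the 78 and for 74.6% of all genes. The DEHP_GTP libraries all lay above the Control libraries for 48 of the 78, compared with 31.8% of all genes. The median log2 fold change was 0.23 for the members (range -0.13 to 0.56) and 0.11 for all genes. The called genes comprised 14 of 51 in the large subunit, 6 of 26 in the small subunit and Mrps36. This comparison shares its libraries with both others, so its calls are no separate evidence for theirs.

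The count of 21 depended on the scaling and on single libraries. It was 45 after rescaling to equal totals, 4 without the Mup genes, 1 after centring on the median gene and 0 after quantile normalization. Over all genes, the calls were 1948 higher and 71 lower with equal totals, 298 and 65 without the Mup genes, 180 and 96 after centring and 172 and 110 after quantile normalization, beside 1006 and 79 as deposited. Leaving out Control replicate 1, 2 or 3 gave 4, 7 or 1, beside 245, 436 or 216 called higher over all genes. Leaving out DEHP_GTP replicate 1, 2 or 3 gave 20, 2 or 4, beside 1032, 224 or 323 over all genes. Against the third Control library alone, the median log2 fold change was 0.25 for the members and 0.17 for all genes. The members' median kept its sign, at 0.07 to 0.31 over the 20 settings, and lay above that of all genes by 0.07 to 0.21. No gene was called in every setting.

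Mrps36 had the largest rise over Control, with a level of 29.0, 37.4 and 31.7 in DEHP_GTP libraries against 23.4, 22.0 and 19.8 in Control libraries (log2 fold change 0.56, SE 0.10, limma adjusted p = 0.01368). Its DEHP_GTP and DEHP levels overlapped, at 0.03 on the log2 scale with an SE of 0.10. Mrps35 had a level of 30.0, 37.0 and 37.3 in DEHP_GTP libraries and 25.4, 26.4 and 23.8 in Control libraries (log2 fold change 0.44, SE 0.10, limma adjusted p = 0.02131). Mrpl16 had a level of 30.4, 30.8 and 30.9 in DEHP_GTP libraries and 23.8, 21.5 and 21.9 in Control libraries, and again the smallest adjusted p (limma, 0.006857) at a log2 fold change of 0.44 (SE 0.07). These 3 genes had no overlap between the groups, and Mrpl16 varied less among DEHP_GTP than among Control libraries.

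Mrpl9 (0.42), Mrpl46 (0.38), Mrpl50 (0.38), Mrps9 (0.37) and Mrpl13 (0.36) completed the 8 largest called rises over Control, with limma adjusted p from 0.01351 to 0.03954. The further called genes were Mrpl10, Mrpl21, Mrpl30, Mrpl37, Mrpl44, Mrpl45, Mrpl49, Mrps5, Mrps16, Mrps17, Mrps18a, Mrps30 and Mrps33. Mrpl54 and Mrpl14, the largest rises of DEHP over Control, stood at 0.32 and 0.27 here and did not pass (limma adjusted p = 0.07539 and 0.07495), although neither overlapped Control. Below 0 were Mrpl4, at -0.13 (limma adjusted p = 0.4238), and Mrpl58, at -0.01.

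Genes that serve the mitochondrial ribosome were counted in the same way, and no difference between lists was tested. Across all genes tested, 21.6% were called higher with DEHP, at a median log2 fold change of 0.12. A list of 6 held 5 ribosomal proteins with other kinds of symbol and Oxa1l, the inner membrane insertase that the ribosome docks on. With DEHP, 3 of the 6 were called higher (median log2 fold change 0.28): Dap3, a small subunit protein that binds guanine nucleotides (0.33, limma adjusted p = 0.01741), Gadd45gip1, a large subunit protein (0.40, limma adjusted p = 0.02315), and Oxa1l (0.30, limma adjusted p = 0.04157). Of 27 assembly factors 14 were called higher and none lower (median 0.28), with the smallest adjusted p for the protease subunit Clpp (0.43), Mterf4, which brings an RNA methyltransferase to the large subunit (0.50), and Spg7, part of the protease that processes a ribosomal protein (0.39). Of 17 translation factors 7 were called higher (median 0.31).

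Gatb, a subunit of the enzyme that makes glutaminyl-tRNA in mitochondria, led the translation factors. Its level was 23.7, 23.6 and 21.8 in DEHP libraries, against 15.13, 14.34 and 14.03 in Control libraries (log2 fold change 0.63, SE 0.07, limma adjusted p = 0.0003906), without overlap. Mtres1, a rescue factor, was at 0.60, and Gfm2, which splits the subunits for recycling, at 0.33. Of 16 mitochondrial aminoacyl-tRNA synthetases, which charge the tRNAs, 4 were called higher (25.0%, median 0.24), among them Cars2 (0.28) and Fars2 (0.29). This share lay near the 21.6% of all genes tested. Of 24 genes of mitochondrial DNA and RNA maintenance 6 were called higher (25.0%, median 0.14), again near the share and the median of all genes (21.6% and 0.12). The smallest adjusted p in that list belonged to the RNA-processing protein Trmt10c (0.42), the topoisomerase Top1mt (0.49) and the single-strand binding protein Ssbp1 (0.55). Mitochondrially encoded transcripts are not analysed here.

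Nuclear genes of the respiratory complexes and ATP synthase, of protein import and of the cytosolic ribosome were counted too, beside 21.6% of all genes tested called higher. Nuclear genes with Nduf symbols, counted here as complex I, gave 35 of 37 called higher with DEHP (median log2 fold change 0.50). The smallest adjusted p in that list belonged to Ndufab1 (0.97) and Ndufa5 (0.77). Complexes III to V gave 32 of 34 (median 0.53), with the smallest adjusted p for Cox7b (0.65), Cox6b1 (0.77) and Uqcr11 (0.77). Complex II, which has no mitochondrially encoded subunit, gave 2 of 4, Sdhc (0.44) and Sdhd (0.41), with a median of 0.32. Protein import gave 17 of 26 (median 0.36), with the smallest adjusted p for Timm8b (0.46) and Tomm5 (0.64), parts of import machinery, and the chaperonin Hspe1 (0.95). Ribosomal proteins of the cytosol were called higher at 38 of 46 in the large and 25 of 31 in the small subunit (medians 0.40 and 0.39).

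Regulators of mitochondrial gene expression gave calls in both directions. Of 11 tested, 1 was called higher and 2 lower with DEHP, beside 21.6% and 3.91% of all genes tested. Their median log2 fold change was -0.19. Ppargc1a, a coactivator of mitochondrial genes, had a level of 2.55, 4.12 and 3.57 in DEHP libraries, against 1.58, 1.46 and 0.92 in Control libraries (log2 fold change 0.92, SE 0.20, limma adjusted p = 0.009758). The nuclear receptor Esrra (-0.29, limma adjusted p = 0.03717) and Pprc1, a relative of Ppargc1a (-0.36, limma adjusted p = 0.04367), were lower. Ppargc1a also stands in the list of 8 brown adipocyte markers, whose summed level was 708 to 811 in DEHP and 415 to 708 in Control libraries. In that list Elovl3 was at 68.4 to 149 in DEHP and 24.5 to 45.2 in Control libraries. Slc27a2, most of the sum in every library, was at 527 to 716 in DEHP and 381 to 437 in Control libraries. The remaining markers, Ucp1, Cox8b, Cidea, Cox7a1 and Dio2, were higher in Control replicates 1 and 2 than in any DEHP library. Cox8b reached 128.5 in Control replicate 1 and 126.8 in replicate 2, while no DEHP library exceeded 0.65. Ucp1 was listed at 0 in all DEHP libraries. The part of these markers in the level of Ppargc1a was not tested.

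Between DEHP_GTP and DEHP, none of these lists held a called gene, as was the case over all genes tested. Medians were -0.24 for complex I, -0.23 for complexes III to V, -0.18 and -0.20 for the cytosolic large and small subunits, -0.12 for import and -0.06 for complex II. Nearer 0 lay assembly factors and the list of 6 with other kinds of symbol (both -0.06), translation factors (-0.02), aminoacyl-tRNA synthetases (-0.03) and DNA and RNA maintenance (0.01), whereas the regulators were at 0.24. Between DEHP_GTP and Control, 9.68% of all genes tested were called higher. Genes called higher numbered 10 of 37 in complex I, 13 of 34 in complexes III to V, 2 of 4 in complex II and 9 of 26 in import. They numbered 5 of 46 (10.9%) and 2 of 31 (6.45%) in the cytosolic large and small subunits. In the list with other kinds of symbol they numbered 0 of 6, and among translation factors 3 of 17. Assembly factors gave 2 of 27 (7.41%), synthetases 1 of 16 (6.25%), DNA and RNA maintenance 4 of 24 (16.7%) and regulators 1 of 11 (9.09%). The shares of cytosolic subunits, assembly factors, synthetases and regulators were thus near or below that of all genes. Gatb (log2 fold change 0.58, limma adjusted p = 0.002329), Ppargc1a (0.90, limma adjusted p = 0.02679) and Tufm, the mitochondrial elongation factor (0.35, limma adjusted p = 0.02131), were among the genes called.

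**Figure D4:**
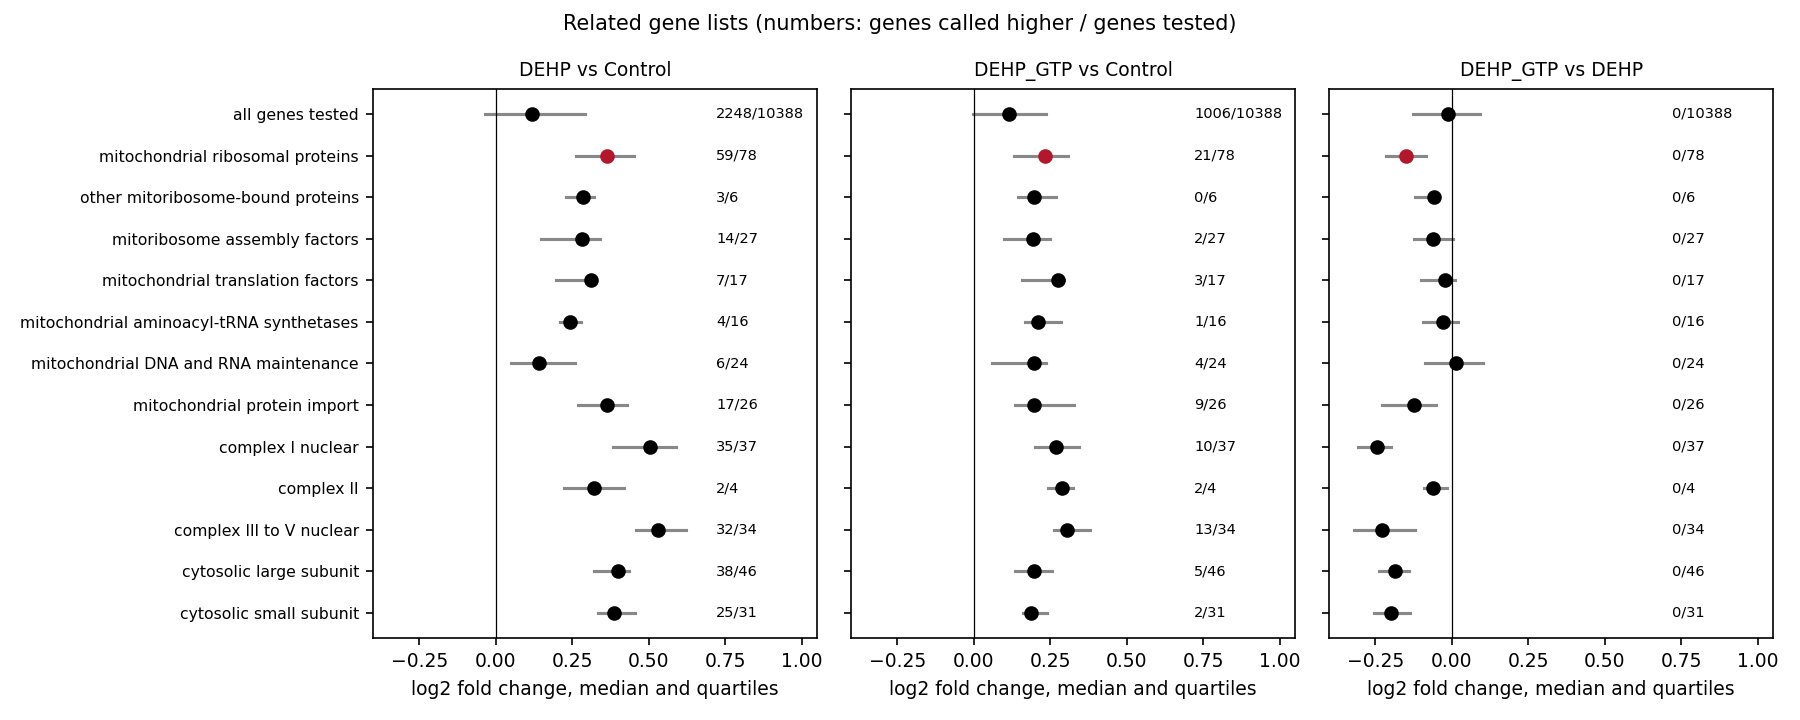
Median log2 fold change (points) with quartiles (bars) of the mitochondrial ribosomal protein genes (red), related gene lists and all genes tested, in DEHP vs Control, DEHP_GTP vs Control and DEHP_GTP vs DEHP; numbers give genes called higher over genes tested. With DEHP, the members' median of 0.36 lies between those of the assembly factors (0.28) and complex I (0.50), and above 0.12 for all genes.

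**Figure D5:**
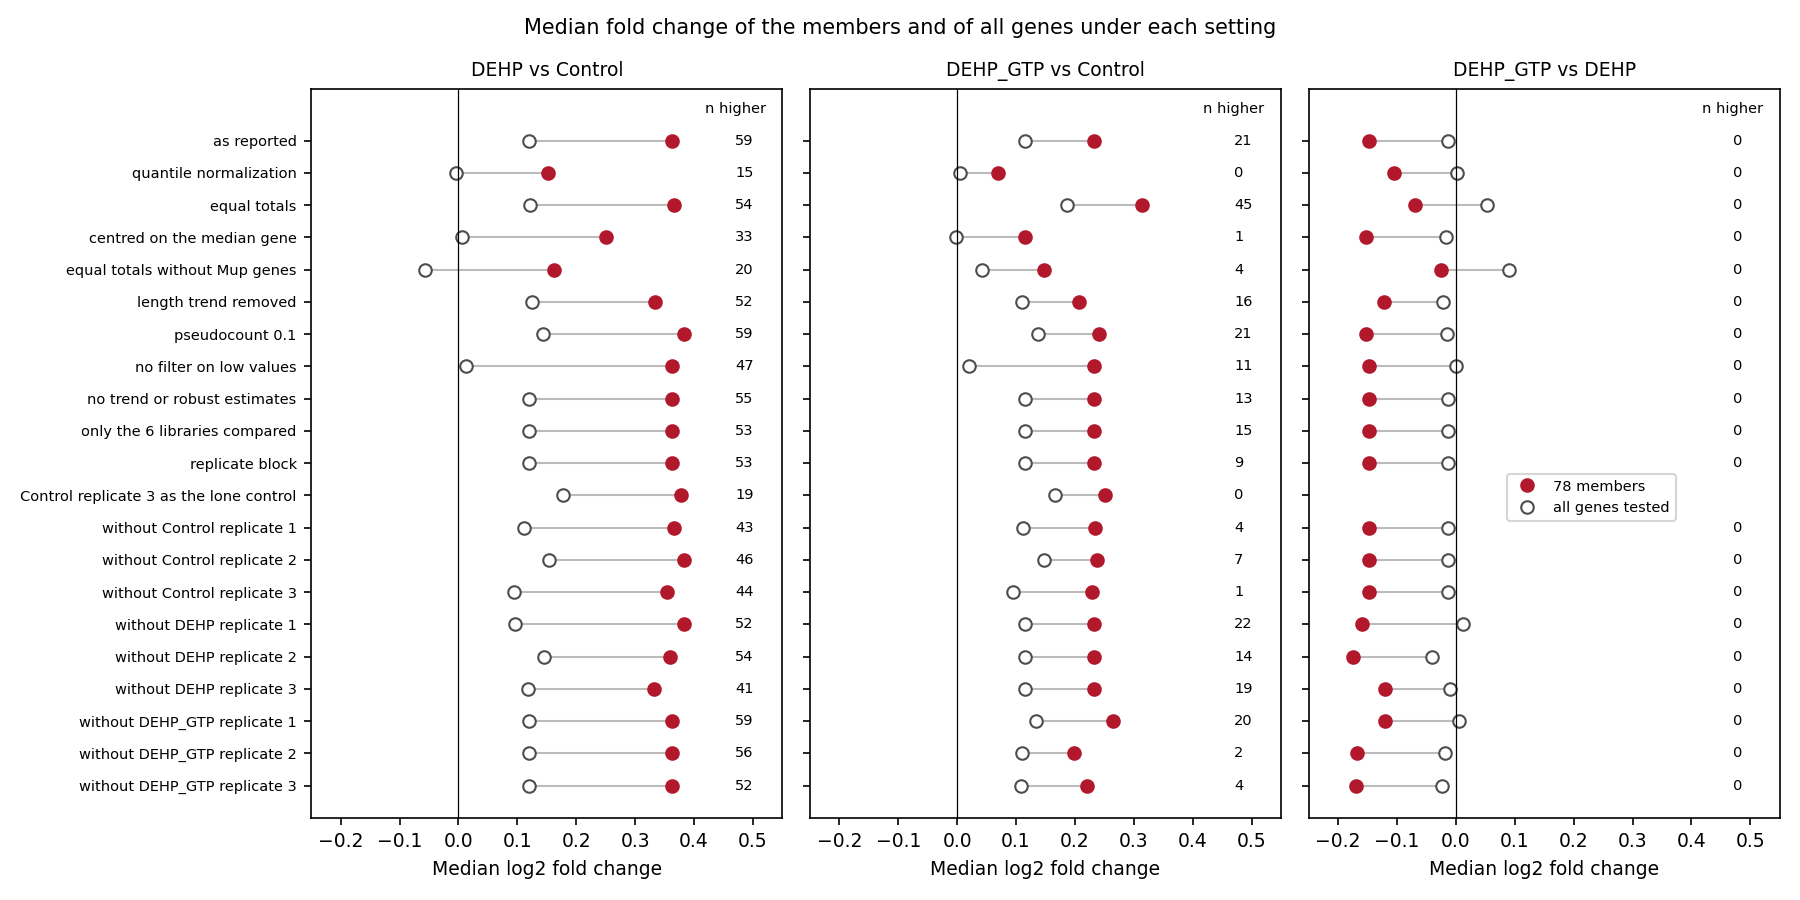
Median log2 fold change (x axis) of the 78 genes (red) and of all genes tested (open) under each processing setting (y axis) in the 3 comparisons, with the number of members called higher at the right. The red points stay above the open points in both comparisons with Control and below them in DEHP_GTP vs DEHP, while the number called ranges from 15 to 59 in DEHP vs Control and from 0 to 45 in DEHP_GTP vs Control.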

How the data were processed

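The table deposited by the authors held a normalized signal for each symbol in each library. Its values showed scaling for depth and length. Per the submitters' processing notes, mm9, CASAVA 1.7 and limma were used, without stated roles. For aligner and counting tool, the sources used here say nothing. Groups came from the sample titles, and the doses of the group titled Treatment from the design text. The 10388 genes tested reached a value of 1 in 3 or more libraries. Values were analysed as log2(value + 1) with limma 3.58.1 (R 4.3.3, trend and robust variance estimates) in 1 fit over 9 libraries, two-sided, with Benjamini-Hochberg adjustment over all genes tested and calls at adjusted p below 0.05. The pseudocount understates changes of low genes. The fit was also run on simulated data, in which the changes were larger than the members' median with DEHP. Recovery of changes as small as that median was not examined. No pair of libraries was a duplicate: the SD of log2 differences within groups was 0.233 to 0.338. The mitochondrial ribosomal protein genes, the related lists and the tests were chosen with earlier results of these data known.

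Genes named with values were, per comparison, the 8 largest called changes with non-overlapping groups and a mean of at least 5, the 5 smallest p where nothing passed, up to 6 genes against the common sign, the 6 highest and 6 lowest levels, members with a textbook role, and up to 3 called genes of each related list, by adjusted p. In DEHP_GTP against DEHP, all 8 genes with fold changes above 0 were named. Mrpl55 and the Mrpl46 to Mrps11 ratio were added after their values were seen. Mrp symbols were assigned to subunits from general knowledge. Promoters are from RefSeq (GRCm38.p6) and exon overlaps from GENCODE M21, and no coordinates were converted between builds. Alternatives covered scaling, pseudocount, filter, variance model, libraries in the fit, a replicate block and leaving out each library.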

Additional observations from a re-analysis of the deposited data

How the results depend on the processing

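The 78 genes gave 59 called higher in DEHP against Control, and 15 after quantile normalization, 33 after centring on the median gene, 20 with equal totals without the Mup genes and 19 when only Control replicate 3 represented the controls, a fit that assumes this library to vary like the other groups. Leaving out 1 library gave 41 to 59, beside 1471 to 2317 over all genes. In DEHP_GTP against Control the 78 genes gave 21, beside 1006 over all genes tested. Quantile normalization gave 0 beside 172, equal totals 45 beside 1948, centring 1 beside 180, and equal totals without the Mup genes 4 beside 298. With no filter on low values 11 were called, beside 487 of 18148, and without trend or robust estimates 13, beside 828. With only that control the members' median was 0.25. Leaving out 1 library gave 1 to 22, beside 216 to 1081 over all genes. None of the 78 was called in DEHP_GTP against DEHP, or lower in either comparison with Control, under any of the alternatives run. The log2 ratio of summed levels in DEHP_GTP against Control was 0.302 with equal totals. Without the Mup genes it was 0.183 in DEHP against Control, -0.056 in DEHP_GTP against DEHP and 0.126 in DEHP_GTP against Control. The share of promoters with a YY1 motif was 1.45% in the 250 bases before the start. With a length trend removed, 52 genes were called in DEHP against Control and 16 in DEHP_GTP against Control. Over all 10304 genes in those fits, 2238 and 1008 were called higher.

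With the replicate number as a block, 53, 0 and 9 genes were called higher in DEHP against Control, DEHP_GTP against DEHP and DEHP_GTP against Control. The same fits called 1947, 0 and 531 higher over all genes tested. Correlations of same-numbered deviations were -0.263 to 0.17, and the samples share only a number. The absolute depth is unknown and 3 libraries per group limit the precision. The causes of these changes were not tested.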
